A study of Mus musculus with 20 samples.

Results

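The set described here is made of 33 genes of mouse chromosome 16 that lie in the segment syntenic to the human 22q11 deletion of DiGeorge syndrome, the segment that also holds Hira. The genes were chosen by symbol from their position, not from their expression, and Hira itself was left out. A row with counts was found for 32 of the 33 among 29956 gene rows, and Arvcf was not analysed here. Of the 32, 24 had 10 or more counts in at least 4 of 20 libraries and entered the test, among 13639 genes in all. The other 8 had a row and too few counts. With Hira they span chromosome 16 from 17233572 (start of Hic2) to 18970309 (end of Hira) in GRCm38.

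In people, loss of 1 copy of this segment causes DiGeorge or velocardiofacial syndrome, with defects of heart outflow, thymus, palate and brain, and TBX1 is the gene most closely tied to the heart and pharyngeal defects. The segment is a run of genes of unrelated function: transcription and replication factors, mitochondrial enzymes and carriers, adaptors of ubiquitin ligases, vesicle and membrane proteins. HIRA, the product of a gene in the segment, is a chaperone that places the histone variant H3.3 on DNA outside of replication. Several genes of the segment start head to head close to a neighbour on the opposite strand, and one such neighbour of Hira is Mrpl40.

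Poly(A) RNA had been sequenced from melb-a, an immortal line of mouse melanoblasts, the precursors of pigment cells. Each of 5 groups had 4 libraries: parental cells without virus, cells with a control hairpin against luciferase (shLuciferase) or with a scrambled one (shScramble), and cells with either hairpin against Hira (shHIRA I, shHIRA II). The 4 hairpin groups shared lentiviral transduction with polybrene and selection in puromycin, and all cells were labelled wild type and grown with SCF and Fgf2. The 4 libraries of a group are called independent replicates in the design text; all come from 1 cell line, so the p-values measure the spread between these cultures. The question put to the 33 genes is whether either hairpin against Hira went with changes in the genes around it, with the 8 control shRNA libraries as the reference.

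Total counts per library lay between 15.0 and 20.7 M (M, 1e6). Mitochondrial mRNA made up 7.98 ± 1.51% of counts with shLuciferase, 8.23 ± 1.06% with shScramble, 7.17 ± 1.40% in parental cells, 5.70 ± 3.44% with shHIRA I and 4.19 ± 0.876% with shHIRA II (SD, n = 4 each). Replicate 3 of shHIRA I, at 1.23%, and replicate 2 of shHIRA II, at 2.88%, stood lowest of the 20 libraries. Where a value is given with the mitochondrial covariate, this share entered the model beside the groups. It ran from 2.88 to 4.71% with shHIRA II and from 6.43 to 9.96% in the control shRNA libraries, without overlap. Values of shHIRA II with the covariate therefore rest on a slope from within groups carried across that gap. For these libraries the share and the hairpin cannot be told apart. The 10 melanoblast and melanocyte markers summed to 2481 to 4287 TPM in the control shRNA libraries, 975 to 2987 TPM with shHIRA I and 661 to 1065 TPM with shHIRA II, with Mitf, Pax3, Kit, Dct, Tyrp1, Pmel and Mlana well expressed. Ednrb was at or near 0, and Sox10 ran from 0.00016 to 11.2 TPM over all 20 libraries. The means of Sox10 were 2.85 TPM in parental cells, 0.0257 TPM with shLuciferase and 3.79 TPM with shScramble. With shHIRA I and shHIRA II they were 0.325 and 0.136 TPM. Tyr had means of 5.88 TPM in parental cells, 34.9 TPM with shLuciferase and 34.0 TPM with shScramble. With shHIRA I and shHIRA II the means of Tyr were 5.78 and 1.33 TPM. Marker sums of endothelium, leukocytes, keratinocytes and testis stayed under 8 TPM in every library. The 4 platelet markers summed to 3.96 to 7.90 TPM in the control shRNA libraries, 7.10 to 14.6 TPM with shHIRA I and 5.37 to 5.93 TPM with shHIRA II, and the 3 Schwann cell markers to 93.4 to 149, 36.8 to 102 and 48.4 to 70.5 TPM in the same order. The part of these differences in the results was not tested. In bulk RNA, fewer cells of a type and less RNA per cell cannot be told apart.

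The sequences below are start regions of tested genes that begin head to head close to a neighbour. Whether such a start region has a part in any change was not tested. Each is the RefSeq window (GRCm38.p6) from 250 bases before to 50 bases after a start site, 5′ to 3′ on the strand of the named gene, and capitals mark every match, on either strand, to 1 of 6 motifs. These were GGGCGG, known as the GC box that Sp1 family factors bind, and CCAAT, known as the site of the factor NF-Y. Further ones were CCGGAAG, known from sites of ETS factors, the palindromic NRF1 motif, the E-box CACGTG that basic helix-loop-helix factors bind, and TATAAA, the core of the TATA box. The first window lies at chr16:18876588-18876887 on the minus strand and holds a start site of Hira as well.
Mrpl40: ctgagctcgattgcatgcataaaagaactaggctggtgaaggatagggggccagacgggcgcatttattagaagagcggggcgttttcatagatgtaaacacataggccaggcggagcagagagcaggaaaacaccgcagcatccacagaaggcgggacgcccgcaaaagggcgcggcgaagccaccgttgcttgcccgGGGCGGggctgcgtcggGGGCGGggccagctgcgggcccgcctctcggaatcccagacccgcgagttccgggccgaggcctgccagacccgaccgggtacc
The second lies at chr16:18812044-18812343 on the plus strand, around the RefSeq start of Ufd1l (Ufd1 in RefSeq), and holds no start site of its neighbour Cdc45.
Ufd1l: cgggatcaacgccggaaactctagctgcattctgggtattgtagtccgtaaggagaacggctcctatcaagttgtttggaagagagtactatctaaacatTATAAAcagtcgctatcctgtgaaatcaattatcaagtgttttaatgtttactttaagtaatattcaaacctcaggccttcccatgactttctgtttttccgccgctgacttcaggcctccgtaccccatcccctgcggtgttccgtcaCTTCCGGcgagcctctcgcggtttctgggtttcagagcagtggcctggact
The third lies at chr16:17405750-17406049 on the plus strand and holds a start site of Pi4ka.
Snap29: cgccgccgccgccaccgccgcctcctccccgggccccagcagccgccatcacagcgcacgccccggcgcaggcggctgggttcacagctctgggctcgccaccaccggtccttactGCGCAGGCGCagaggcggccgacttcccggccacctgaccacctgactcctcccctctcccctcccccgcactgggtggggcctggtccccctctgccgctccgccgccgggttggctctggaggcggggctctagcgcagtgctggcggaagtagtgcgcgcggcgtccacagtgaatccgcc
The fourth lies at chr16:18248645-18248944 on the minus strand and holds a start site of Trmt2a.
Ranbp1: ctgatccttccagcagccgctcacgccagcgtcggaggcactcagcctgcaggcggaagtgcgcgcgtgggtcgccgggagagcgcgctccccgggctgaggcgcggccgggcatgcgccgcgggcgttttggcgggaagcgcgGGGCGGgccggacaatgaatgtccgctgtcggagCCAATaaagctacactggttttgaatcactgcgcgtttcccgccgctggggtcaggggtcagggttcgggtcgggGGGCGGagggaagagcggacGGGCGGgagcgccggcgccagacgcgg
In RefSeq the starts of Mrpl40 and Hira are 113 bases apart, those of Cdc45 and Ufd1l 322 bases and those of Ranbp1 and Trmt2a 189 bases, and the stretches around the starts of Pi4ka and Snap29 overlap. In GENCODE M21 the genes of the pairs Cdc45 and Ufd1l, Ranbp1 and Trmt2a, and Pi4ka and Snap29 overlap by 208, 53 and 328 bases, where reads of either strand can be told apart only if counting used strand, and Mrpl40 and Hira do not overlap.

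The Mrpl40 window held 2 GC boxes and none of the other 5 motifs. The Ranbp1 window held 3 GC boxes and 1 CCAAT box, the Ufd1l window 1 ETS match and 1 TATA match, and the Snap29 window 1 NRF1 match. GC boxes were in windows of 17 of the 24 tested genes (70.8%), beside 35.7% of all 32851 mouse windows of 300 bases. CCAAT was in 10 (41.7%, beside 37.4%), CCGGAAG in 5 (20.8%, beside 8.86%), the NRF1 motif in 3 (12.5%, beside 4.6%), CACGTG in 2 (8.33%, beside 7.15%) and TATAAA in 3 (12.5%, beside 13.6%). A gene with several windows was scored by its first window only, and a base could belong to more than 1 match. The other window of Pi4ka held a GC box and an NRF1 match, and that of Dgcr6 a CCAAT box, none of them counted. Such matches describe the letters of these windows only.

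Levels per length ran from 0.539 to 348 TPM in these cells. Mean TPM over the 20 libraries was highest for Ranbp1, a cofactor of the Ran GTPase in nuclear transport (348), followed by Prodh, the mitochondrial proline dehydrogenase (98.9), and Mrpl40, a protein of the large mitochondrial ribosomal subunit (87.0). Slc25a1 (83.2), Dgcr6 (75.9), Ufd1l (67.7), Klhl22 (66.9), Dgcr2 (54.5) and Txnrd2 (42.5) came next. Ranbp1 stood clear of every other member but Txnrd2, while from Prodh to Txnrd2 the ranges over libraries overlapped. At the low end stood Hic2, a transcriptional repressor (1.82), Car15, a carbonic anhydrase (0.822), and Gp1bb, a subunit of the platelet receptor for von Willebrand factor (0.539). Car15 and Gp1bb passed the filter with 15 and 16 libraries, and 91.5% of the 31-base words of Gp1bb transcripts and 61.3% of those of Car15 also occur in transcripts of other genes, so their values are uncertain. The same share was 49.8% for Hic2, mostly with Gm26635, and 20.2% for Ranbp1, mostly with Gm49776.

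**Figure D1:**
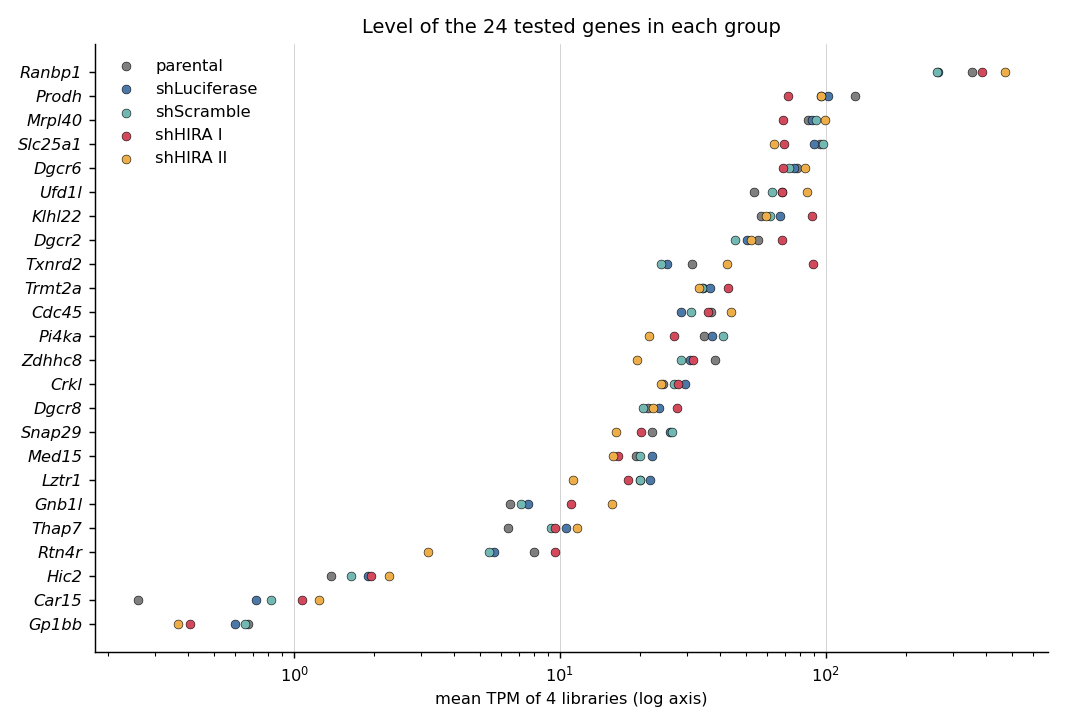
Level of the 24 tested genes in TPM (log axis), 1 point per group as the mean of 4 libraries. Ranbp1 stands alone at the top with a mean of 348 TPM over all libraries, most genes lie between 10 and 100 TPM, and Hic2, Car15 and Gp1bb lie at the bottom.

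The 8 genes that were not tested include several known mainly from other tissues. Tbx1, the T-box factor of the pharyngeal arches, had 0 counts in all 20 libraries. Cldn5, a tight junction protein of endothelium, reached at most 2 counts in a library, Tssk2, a kinase of the testis, 7, and Serpind1, heparin cofactor II of the liver, 14. Aifm3, P2rx6, Slc7a4 and Scarf2 reached 2, 3, 4 and 5 counts. Nothing is said about a change of these genes.

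Hira, the targeted gene, checks the labels before its neighbours are read. Replicates 1 to 4 of shHIRA I held 45.4, 26.6, 41.8 and 33.3 CPM (counts per 1e6 counts, TMM-scaled), and those of shHIRA II held 63.2, 63.3, 70.9 and 69.8 CPM, beside 63.7 to 89.8 CPM with the control shRNAs. The log2 fold change was −1.05 with shHIRA I (SE 0.14, edgeR adjusted p = 5.1e-05) and −0.19 with shHIRA II (SE 0.14, edgeR adjusted p = 0.307). With the mitochondrial covariate Hira was called lower with shHIRA II as well (−0.46, edgeR adjusted p = 0.0395). Without it the target was called lower with shHIRA I and not with shHIRA II, and directions from the other hairpin belong to the libraries labelled shHIRA II. Transcripts of other genes share 43.1% of the 31-base words of Hira, mostly Gm28539, which overlaps it.

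Mrpl40, whose start lies 175 bases from that of Hira in GENCODE M21 (chromosome 16, 18872018 to 18876862, minus strand), was lower with shHIRA I, and no fall was seen with the other hairpin. Its level was 45.2, 33.7, 48.0 and 40.8 CPM in the 4 libraries of shHIRA I. The control shRNA libraries held 58.8, 50.7, 60.4 and 53.1 CPM (shLuciferase) and 60.6, 64.8, 63.2 and 58.6 CPM (shScramble). All 4 shHIRA I libraries lay under all 8 control shRNA libraries and under the 4 parental libraries, which held 64.0, 50.7, 60.8 and 60.5 CPM. With shHIRA II Mrpl40 stood at 56.6, 67.3, 59.8 and 60.3 CPM, inside or above the range of the controls.

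With shHIRA I, Mrpl40 was at 71.4% of the control shRNA level (95% interval 61.0 to 83.6%, log2 fold change −0.49, SE 0.11, edgeR adjusted p = 0.00372). It fell as well against shLuciferase alone (−0.41, adjusted p = 0.0356), shScramble alone (−0.56, adjusted p = 0.0047) and parental cells (−0.49, adjusted p = 0.0097) in the same edgeR fit. In the libraries labelled shHIRA II Mrpl40 was at 104% of control (95% interval 89.1 to 121%, log2 fold change 0.06, edgeR adjusted p = 0.721). The difference between the hairpins was itself called (shHIRA II minus shHIRA I 0.54, SE 0.12, edgeR adjusted p = 0.00434). Mrpl40 was the sole one of the 24 genes called with shHIRA I under every alternative setting and with each library left out in turn. With the mitochondrial covariate its value was −0.61 (edgeR adjusted p = 0.000476). The fall of Mrpl40 was smaller than that of Hira, whose level with shHIRA I was 48.3% of control, and only 4.49% of the 31-base words of Mrpl40 transcripts occur in other genes.

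**Figure D2:**
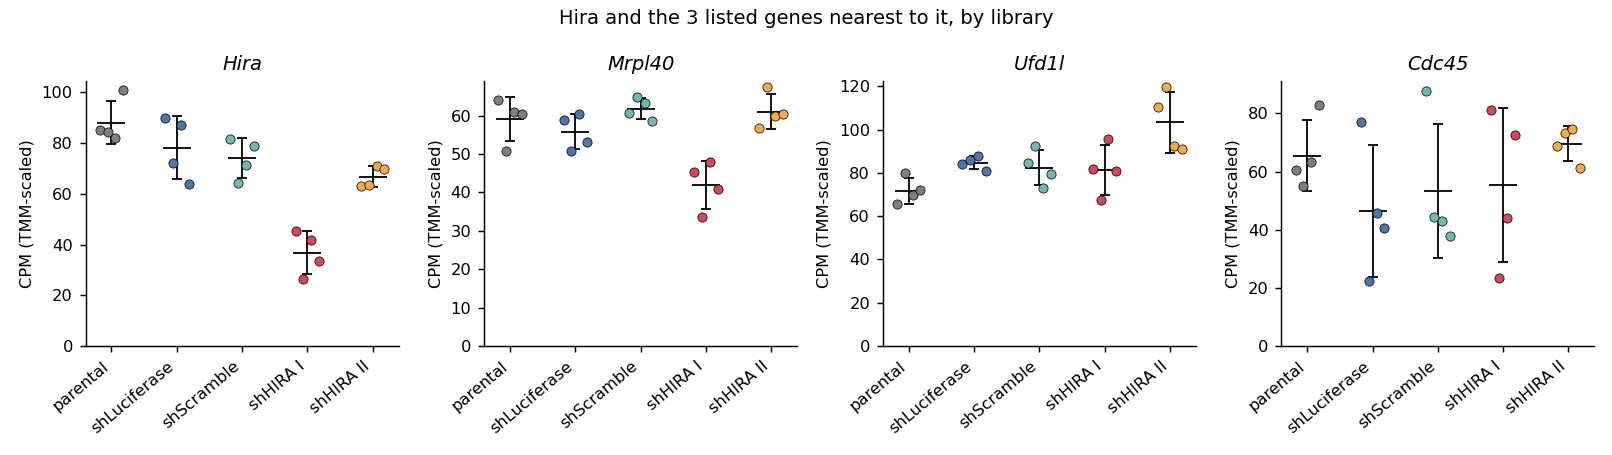
CPM of Hira and the 3 listed genes whose starts lie nearest to it, in each library (points) of the 5 groups, with the mean (dash) and SD (bars) of 4 libraries. For Hira and Mrpl40 the 4 shHIRA I libraries lie under all others, while Ufd1l and Cdc45 with shHIRA I overlap the controls.

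The next neighbours are Ufd1l, a cofactor of the p97 segregase in ubiquitin-dependent degradation, and Cdc45, a subunit of the replicative helicase, which start 65.3 and 65.1 kb from Hira. Ufd1l (chromosome 16, 18811779 to 18835261, plus strand) had 81.9, 67.5, 95.6 and 81.0 CPM with shHIRA I and 73.0 to 92.3 CPM in the control shRNA libraries, and its log2 fold change of −0.04 (95% interval −0.27 to 0.19) was not called. The libraries labelled shHIRA II held 110, 120, 92.5 and 90.9 CPM, of which 3 lay above all controls. Ufd1l was called higher there (log2 fold change 0.31, SE 0.11, edgeR adjusted p = 0.0366). The call ended without shHIRA II replicate 1 (0.29, adjusted p = 0.0953), shHIRA II replicate 2 (0.23, 0.156), shLuciferase replicate 4 (0.31, 0.0514), shScramble replicate 3 (0.28, 0.0697) or shScramble replicate 4 (0.30, 0.0606). It also ended for Ufd1l with the mitochondrial covariate (0.15, adjusted p = 0.465), with no filter on low counts (0.31, 0.0771), without the parental libraries (0.28, 0.0749) and without the 2 shHIRA libraries of lowest mitochondrial share (0.23, 0.0857).

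Cdc45 (chromosome 16, 18780447 to 18811987, minus strand) varied widely inside groups. It had 81.3, 23.3, 44.1 and 72.5 CPM with shHIRA I, 68.9, 73.2, 74.7 and 61.3 CPM with shHIRA II, 77.2, 22.4, 45.8 and 40.5 CPM with shLuciferase and 87.8, 44.5, 43.0 and 38.0 CPM with shScramble. The groups overlapped, and neither log2 fold change was called (0.15, 95% interval −0.49 to 0.80, with shHIRA I and 0.48, −0.16 to 1.12, with shHIRA II). Cdc45 and Ufd1l start 322 bases apart in RefSeq, and the intervals leave room for changes of Cdc45 larger than that called for Ufd1l.

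Over the whole set, 9 of 24 genes were called with shHIRA I, 4 higher and 5 lower, where 19.6% of all tested genes were called (10.8% higher, 8.8% lower). In the libraries labelled shHIRA II 10 of 24 were called, 3 higher and 7 lower, where 32.2% of all genes were (15.7% higher, 16.6% lower). The median log2 fold change of the 24 genes was −0.04 with shHIRA I and −0.09 with shHIRA II, beside 0.05 and 0.02 over all genes, and the medians of the size of change were 0.37 and 0.50, beside 0.33 and 0.42. Both comparisons use the same 8 control libraries. Of the genes, 3 were called lower in both (Pi4ka, Snap29, Slc25a1), Rtn4r was called higher in the first and lower in the second, and 9 were called in neither. The same joint counts were not made over all genes, so these describe the members only. The shares called, 37.5% and 41.7%, lay above those of all genes, and genes were called to both sides of 0. The 9 calls with shHIRA I were 4 without shHIRA I replicate 1, shHIRA I replicate 4 or shLuciferase replicate 3, and 5 without shScramble replicate 4. The 10 calls with shHIRA II were 6 without its replicate 2 and 5 with the mitochondrial covariate. The shares of all genes called in these fits are not given here, so the smaller counts are not read as particular to the members.

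**Figure D3:**
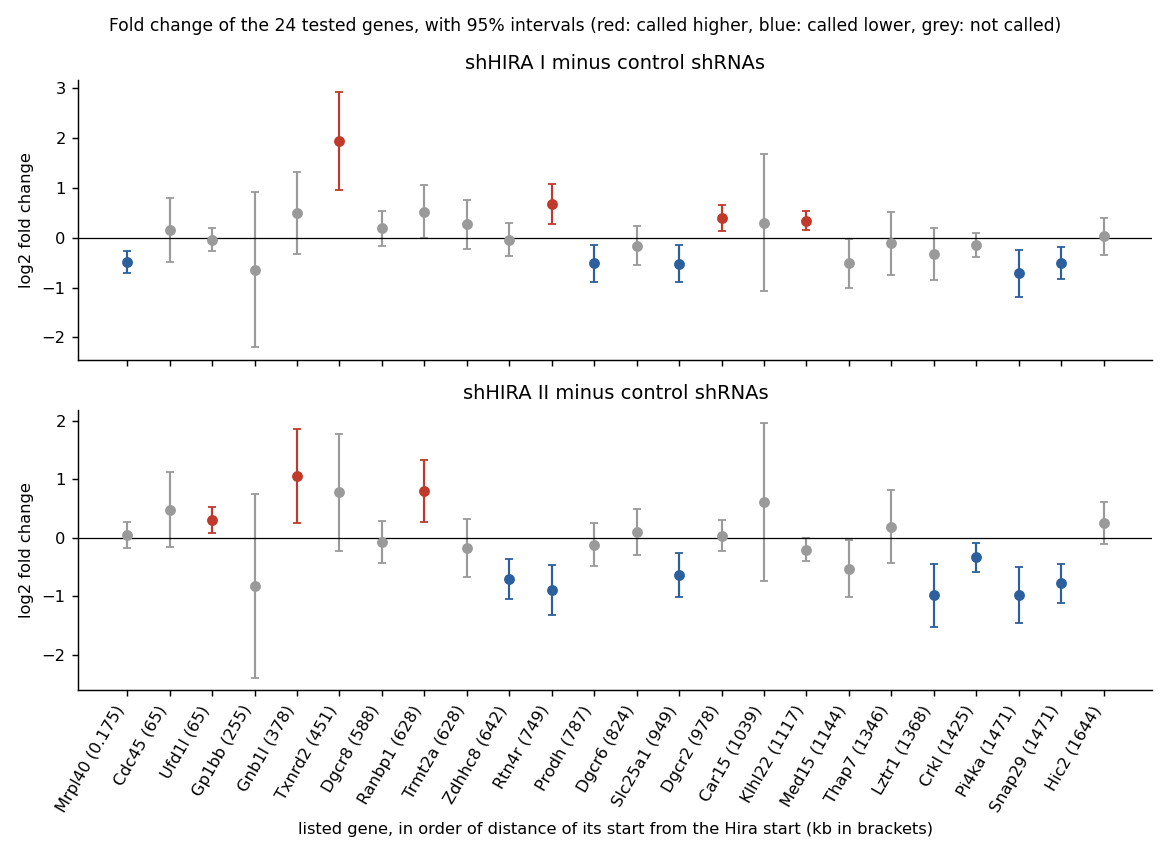
Log2 fold change against the control shRNA libraries of the 24 tested genes, with 95% intervals, in order of the distance of each start from the start of Hira (kb in brackets), for shHIRA I (top) and the libraries labelled shHIRA II (bottom); red and blue mark genes called higher and lower. The nearest gene, Mrpl40, is lower in the top plot at −0.49 and near 0 in the bottom plot at 0.06, and called genes lie at all distances.

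Called genes lay at all distances from Hira. Of the 4 tested genes within 300 kb of the Hira start, 1 was called lower with shHIRA I (Mrpl40) and 1 higher with shHIRA II (Ufd1l). Of the 6 genes from 1200 to 1700 kb away, at the far end, 2 were called lower with shHIRA I and 4 with shHIRA II, with medians of −0.23 and −0.56. Of the 6 from 300 to 700 kb, 1 was higher with shHIRA I, and 2 were higher and 1 lower with shHIRA II (medians 0.39 and 0.35). The 8 from 700 to 1200 kb held 3 higher and 2 lower genes with shHIRA I and 2 lower ones with shHIRA II. Across the 24 genes, which share libraries, Pearson's r between distance and log2 fold change was −0.25 for shHIRA I and −0.38 for shHIRA II, given as a description.

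Among the members that act in mitochondria, Slc25a1, the citrate carrier of the inner membrane (chromosome 16, 17925223 to 17928219, minus strand), was lower with both hairpins. It stood at 40.2, 83.0, 82.9 and 62.3 CPM with shHIRA I and at 59.9, 71.8, 59.1 and 57.2 CPM with shHIRA II, beside 63.8 to 121 CPM in the controls. Both groups overlapped the lower end of the controls, whose lowest library was shLuciferase replicate 1. The log2 fold changes were −0.52 (SE 0.18, edgeR adjusted p = 0.0454) and −0.63 (SE 0.18, edgeR adjusted p = 0.0107). The second of these Slc25a1 calls held in every alternative fit against both control groups together. The first was lost when any of 15 of the 20 libraries was left out (log2 fold change −0.64 to −0.34 over the 20, adjusted p up to 0.152). It was lost too with limma on TPM (−0.45, adjusted p = 0.0639), library totals (−0.46, 0.0556), the mitochondrial covariate (−0.55, 0.0563) and without the parental libraries (−0.53, 0.0778).

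Prodh, which begins proline breakdown, had 95.4, 64.7, 154 and 119 CPM with shHIRA I, 145, 160, 130 and 135 CPM with shHIRA II and 135 to 183 CPM in the controls. Of the shHIRA I libraries 3 lay under all controls and replicate 3 lay among them. Its log2 fold change with shHIRA I was −0.51 (SE 0.18, edgeR adjusted p = 0.0495), and leaving out any of 17 of the 20 libraries ended the call (−0.73 to −0.33, adjusted p up to 0.147). The call of Prodh also ended with DESeq2's size factors in edgeR (−0.51, adjusted p = 0.0565), library totals (−0.46, 0.0677), no filter (−0.53, 0.0592) and without the parental libraries (−0.52, 0.0551), and with the mitochondrial covariate the value was −0.86. Parental cells held more Prodh, 177 to 279 CPM.

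Txnrd2, the mitochondrial thioredoxin reductase (chromosome 16, 18426384 to 18479073, plus strand), had 16.5, 21.8, 129 and 15.9 CPM with shHIRA I, 18.3, 38.6, 15.5 and 9.49 CPM with shHIRA II and 7.53 to 14.9 CPM in the controls. All 4 shHIRA I libraries lay above the controls, and replicate 3 was far above the other 3. The log2 fold change of Txnrd2 with shHIRA I, 1.94 (SE 0.47, edgeR adjusted p = 0.00626), was 0.60 without replicate 3 and no longer called (adjusted p = 0.216). That library is the one with 1.23% mitochondrial mRNA, and with that share as a covariate the value was 0.75 (adjusted p = 0.21). Its part in the result was not tested further.

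The same library stood apart at other genes of the set, singled out after their values were seen. Trmt2a, a tRNA methyltransferase, had 150 CPM there and 42.3 to 50.6 CPM in the other 3 shHIRA I libraries. Dgcr6 had 86.3 CPM beside 39.7 to 44.1, and Med15, a Mediator subunit, had 20.7 CPM beside 49.7 to 53.7. None of these 3 was called with either hairpin. Ranbp1 had 519 CPM in that library and 553 CPM in shHIRA II replicate 2, the library with the next lowest share of mitochondrial mRNA, beside at most 361 CPM in the other 18.

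**Figure D4:**
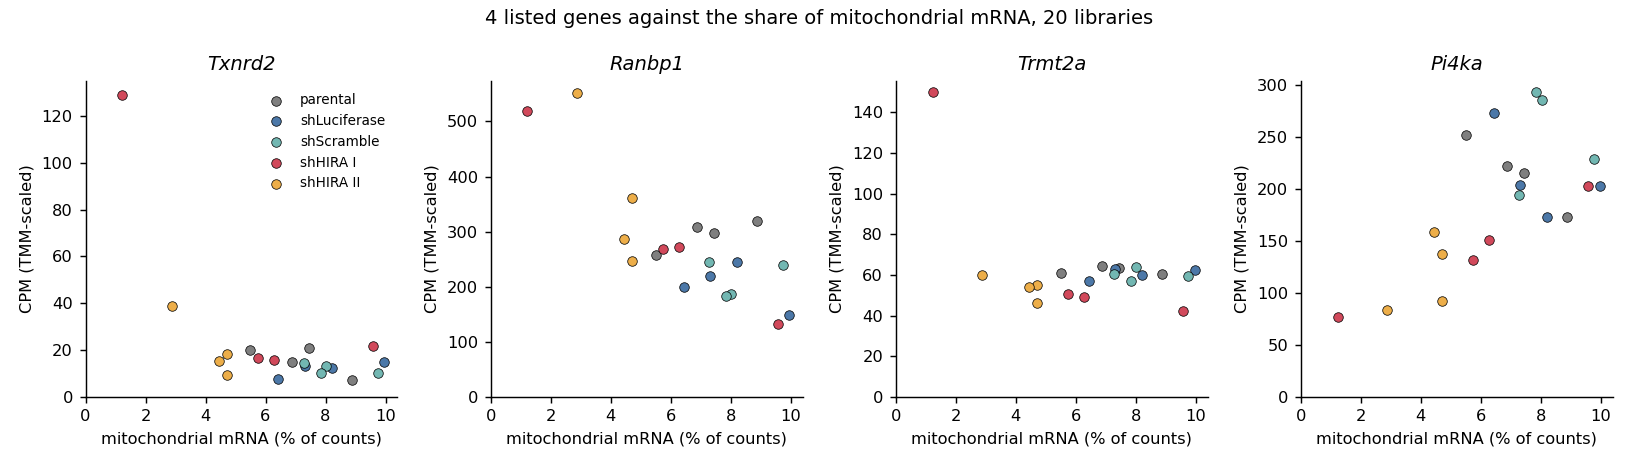
CPM of 4 listed genes (y axis) against the share of counts from mitochondrially encoded mRNA in percent (x axis), 1 point per library, 20 libraries, coloured by group. The shHIRA I library at 1.23% holds the highest Txnrd2 (129 CPM) and Trmt2a (150 CPM) and the lowest Pi4ka (76.8 CPM), and it and the shHIRA II library at 2.88% hold the highest Ranbp1.

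Pi4ka and Snap29, the pair with overlapping starts, were lower with both hairpins. Pi4ka, the kinase that makes phosphatidylinositol 4-phosphate at the plasma membrane (chromosome 16, 17280351 to 17406314, minus strand), had 131, 202, 76.8 and 151 CPM with shHIRA I, 91.8, 83.2, 158 and 137 CPM with shHIRA II and 173 to 293 CPM in the controls. All shHIRA II libraries and 3 shHIRA I libraries lay under every control. The log2 fold changes of Pi4ka were −0.72 (SE 0.23, edgeR adjusted p = 0.0306) and −0.97 (SE 0.23, edgeR adjusted p = 0.00329). With the mitochondrial covariate neither was called (−0.57, adjusted p = 0.0733, and −0.64, adjusted p = 0.097).

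Snap29, a SNARE of membrane fusion in autophagy and trafficking (chromosome 16, 17405986 to 17430827, plus strand), had 46.1, 66.3, 42.3 and 69.9 CPM with shHIRA I, 41.6, 45.6, 49.5 and 50.1 CPM with shHIRA II and 59.0 to 95.3 CPM in the controls. Only the shHIRA II libraries lay apart from all controls. Snap29 changed by −0.51 (SE 0.16, edgeR adjusted p = 0.0264) and −0.78 (SE 0.16, edgeR adjusted p = 0.00113). Its fall with shHIRA II was called in every alternative fit against both control groups together. With shHIRA I the call of Snap29 was lost on leaving out replicate 1 (−0.43, adjusted p = 0.0946) or 3 (−0.40, 0.0766) of that group, shLuciferase replicate 3 (−0.48, 0.0521) or shScramble replicate 4 (−0.48, 0.0501). The call of Pi4ka was lost on leaving out replicate 1 (−0.69, adjusted p = 0.077), 3 (−0.51, 0.0826) or 4 (−0.75, 0.053) of shHIRA I, shLuciferase replicate 3 (−0.65, 0.0604) or shScramble replicate 3 (−0.68, 0.0541) or 4 (−0.67, 0.0548). With shHIRA I both calls also ended with limma on TPM (Snap29 −0.41, Pi4ka −0.66, adjusted p = 0.141 and 0.104), library totals as scaling (−0.44 and −0.64, 0.0506 and 0.0574), without the parental libraries (−0.52 and −0.72, 0.051 and 0.0521) and without the 2 shHIRA libraries of lowest mitochondrial share (−0.40 and −0.51, 0.0808 and 0.0616), and that of Snap29 with the mitochondrial covariate (−0.40, 0.0824). Against parental cells, both genes were called lower with shHIRA II (Pi4ka −0.87, Snap29 −0.62, edgeR adjusted p = 0.0143 and 0.0131), and with shHIRA I neither passed (−0.62 and −0.35, adjusted p = 0.103 and 0.186).

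Rtn4r, the Nogo receptor that restrains axon growth (chromosome 16, 18127642 to 18152408, plus strand), went opposite ways with the 2 hairpins. It had 13.2, 12.3, 13.5 and 18.9 CPM with shHIRA I and 2.67, 4.78, 6.82 and 5.28 CPM with shHIRA II. The 8 controls lay between them without overlap, at 7.78 to 9.73 CPM. The log2 fold changes of Rtn4r were 0.68 (SE 0.19, edgeR adjusted p = 0.0159) and −0.89 (SE 0.20, edgeR adjusted p = 0.00299), and the difference of −1.57 (shHIRA II minus shHIRA I, SE 0.23, edgeR adjusted p = 0.000182) had the smallest adjusted p of the 24 genes. The call of Rtn4r with shHIRA I was lost on leaving out its replicate 4 (0.53, adjusted p = 0.0841).

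Parental cells held 10.9, 13.7, 14.0 and 16.5 CPM of Rtn4r, a range that overlaps shHIRA I. Against parental cells Rtn4r with shHIRA I changed by 0.07 (edgeR adjusted p = 0.87) and with shHIRA II by −1.49 (edgeR adjusted p = 0.000138). For Rtn4r the control shRNA libraries stood 0.61 under the parental ones on the log2 scale, a difference that was not called (edgeR adjusted p = 0.0916).

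**Figure D5:**
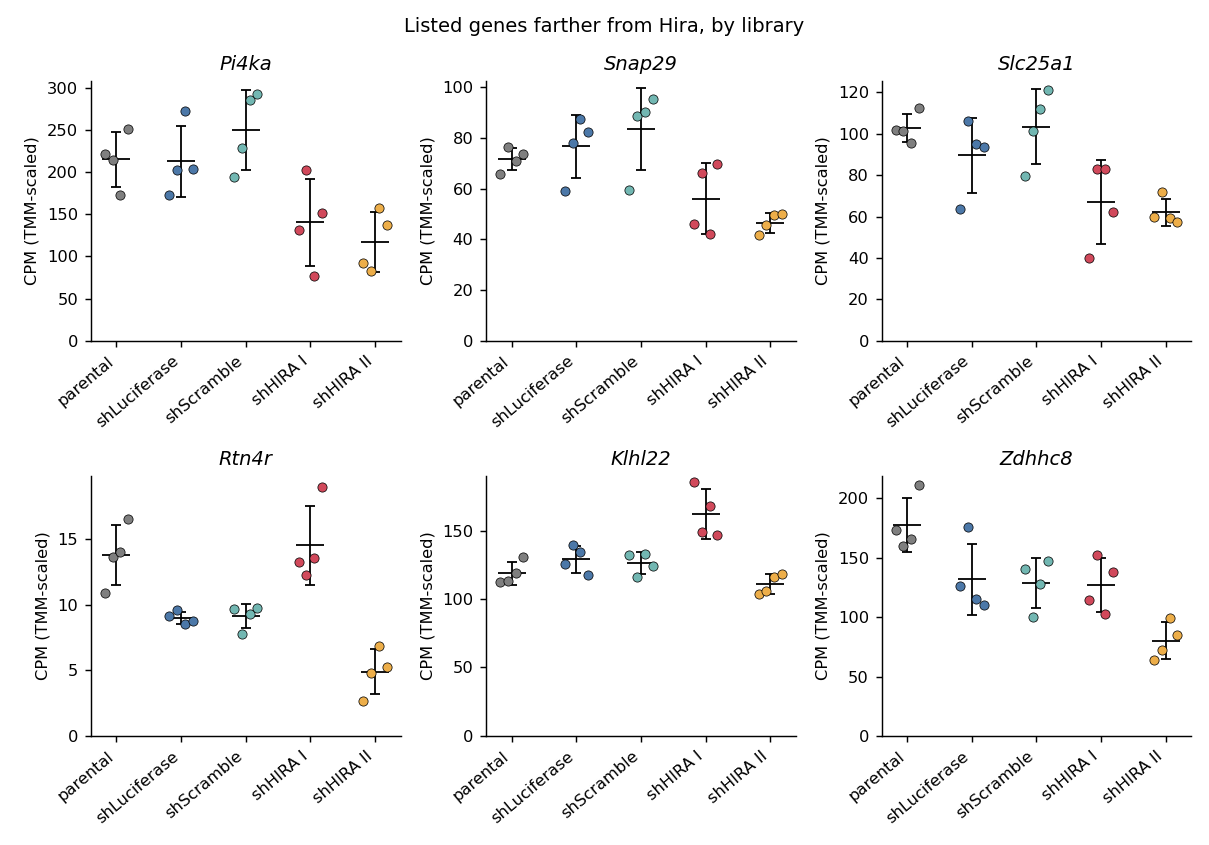
CPM of 6 listed genes that lie 642 kb or more from the start of Hira, in each library (points) of the 5 groups, with the mean (dash) and SD (bars) of 4 libraries. Pi4ka, Snap29 and Slc25a1 are lower with both hairpins, Rtn4r is above the controls with shHIRA I and below them in the libraries labelled shHIRA II, Klhl22 is high with shHIRA I, and Zdhhc8 is low in the libraries labelled shHIRA II.

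Zdhhc8, a palmitoyltransferase (chromosome 16, 18220753 to 18235136, minus strand), had 64.0, 72.2, 99.3 and 85.1 CPM with shHIRA II, each under the 99.9 to 176 CPM of the controls. With shHIRA I it had 114, 153, 102 and 138 CPM, inside the controls. The log2 fold change of Zdhhc8 was −0.70 with shHIRA II (SE 0.16, edgeR adjusted p = 0.00302) and −0.04 with shHIRA I, and the difference of −0.66 was called (edgeR adjusted p = 0.0144). Without shHIRA I replicate 2 or shHIRA II replicate 1 that difference was −0.56 (adjusted p = 0.0525) or −0.55 (adjusted p = 0.0609), and with limma on TPM −0.67 (adjusted p = 0.0503). With the mitochondrial covariate the fall of Zdhhc8 with shHIRA II was −0.51 (adjusted p = 0.0785).

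Dgcr2, a membrane protein with features of an adhesion receptor, had 187, 229, 199 and 220 CPM with shHIRA I, 145 to 180 CPM with shHIRA II and 131 to 208 CPM in the controls. It was called higher with shHIRA I (0.39, SE 0.12, edgeR adjusted p = 0.029) and the groups overlapped. Parental cells held as much Dgcr2, 175 to 223 CPM, and against them the change was 0.11 (edgeR adjusted p = 0.674). The call of Dgcr2 was lost on leaving out replicate 2 (0.35, adjusted p = 0.0715) or 4 (0.37, 0.0738) of shHIRA I, shLuciferase replicate 1 (0.37, 0.0508), 3 (0.38, 0.0535) or 4 (0.37, 0.051), or shScramble replicate 2 (0.36, 0.054), with no filter (0.37, 0.066) and without the parental libraries (0.39, 0.0525). Transcripts of other genes, Gm20518 foremost, hold 26.3% of the 31-base words of Dgcr2.

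Klhl22 and Lztr1 are adaptors of the cullin-3 ubiquitin ligase, and they were called with different hairpins. Klhl22 (chromosome 16, 17759618 to 17793382, plus strand) had 186, 149, 168 and 147 CPM with shHIRA I, above all controls at 116 to 140 CPM, and 103 to 119 CPM with shHIRA II. It changed by 0.35 with shHIRA I (SE 0.09, edgeR adjusted p = 0.0128), by −0.20 with shHIRA II (adjusted p = 0.115) and by −0.55 between them (SE 0.11, edgeR adjusted p = 0.00179). Against parental cells Klhl22 was higher with shHIRA I as well (0.45, edgeR adjusted p = 0.00818). The call against the control shRNAs was lost on leaving out replicate 1 of shHIRA I (0.27, adjusted p = 0.0674) and with no filter (0.32, 0.0563), while the difference between hairpins held with each library left out.

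Lztr1, which brings RAS proteins to that ligase, had 25.3, 40.3, 40.9 and 21.4 CPM with shHIRA II and 32.6 to 65.5 CPM with shHIRA I. The controls ran from 30.4 to 82.5 CPM and overlapped both. Lztr1 changed by −0.98 with shHIRA II (SE 0.26, edgeR adjusted p = 0.00675), by −0.32 with shHIRA I (adjusted p = 0.394), and the difference of −0.66 was not called (adjusted p = 0.11). With the mitochondrial covariate Lztr1 had −0.91 with shHIRA II (adjusted p = 0.0575).

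Crkl, an adaptor between tyrosine kinases and small GTPases, fell by 0.33 on the log2 scale in the libraries labelled shHIRA II (SE 0.12, edgeR adjusted p = 0.0344), with 88.8, 90.2, 120 and 109 CPM against 112 to 150 CPM in the controls. The groups overlapped, and leaving out any of 7 libraries ended the call of Crkl (−0.40 to −0.25 over the 20 omissions, adjusted p up to 0.167). The call of Crkl ended as well with limma on TPM (−0.25, adjusted p = 0.238), library totals as scaling (−0.19, 0.232), the mitochondrial covariate (−0.37, 0.0822), no filter (−0.33, 0.0793) and without the 2 shHIRA libraries of lowest mitochondrial share (−0.27, 0.0918). With shHIRA I Crkl had 110 to 122 CPM and a change of −0.14 (adjusted p = 0.429).

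Ranbp1, the most abundant member, had 361, 553, 287 and 247 CPM with shHIRA II and 148 to 244 CPM in the controls. The lowest of the 4 lay just above the highest control. It was called higher there (0.80, SE 0.25, edgeR adjusted p = 0.021). Without shHIRA II replicate 2 the value was 0.52 (adjusted p = 0.149), and with the mitochondrial covariate Ranbp1 had 0.08 (adjusted p = 0.872). With shHIRA I it had 268, 133, 519 and 272 CPM, spread on both sides of the controls (0.52, adjusted p = 0.168). Parental cells held 258 to 320 CPM. Trmt2a, which shares the start region of Ranbp1, was not called with either hairpin (0.27 and −0.17).

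Gnb1l, a WD-repeat protein, had 22.7, 25.6, 9.39 and 14.5 CPM with shHIRA II, 20.1, 5.35, 15.0 and 8.81 CPM with shHIRA I and 3.47 to 17.4 CPM in the controls. Of the shHIRA II libraries 2, and of the shHIRA I libraries 3, lay inside the controls. The change with shHIRA II was 1.06 (SE 0.39, edgeR adjusted p = 0.0425), and the call of Gnb1l ended when any of 9 libraries was left out (0.84 to 1.36 over the 20 omissions, adjusted p up to 0.157), with the mitochondrial covariate (0.24, adjusted p = 0.775), with no filter (1.06, 0.0509), without the parental libraries (1.03, 0.0695) and without the 2 shHIRA libraries of lowest mitochondrial share (0.84, 0.142).

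Dgcr8, the partner of Drosha in microRNA processing, was not called and had log2 fold changes of 0.19 (95% interval −0.17 to 0.54) and −0.07 (−0.43 to 0.28), and 16.9% of its 31-base words occur elsewhere, mostly in Trmt2a. Hic2, Thap7, Med15, Dgcr6, Car15 and Gp1bb were also called with neither hairpin, with changes from −0.64 to 0.30 for shHIRA I and from −0.82 to 0.61 for shHIRA II, both ends set by Car15 and Gp1bb.

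Tested directly, the hairpins differed at 4 of the 24 genes, where 20.9% of all genes differed (8.56% higher with shHIRA II, 12.4% lower). Klhl22, Rtn4r and Zdhhc8 were lower in the libraries labelled shHIRA II than with shHIRA I, and Mrpl40 was higher, as was Hira, the target (0.86, SE 0.16, edgeR adjusted p = 0.000966). Without shHIRA I replicate 3 the hairpins differed at 7 members. Between the 2 control hairpins none of the 24 genes was called by edgeR, where 0% of all genes were called, and none by DESeq2 or limma. At an unadjusted edgeR p under 0.05 stood none of the 24, where only 174 of all 13639 genes did, so a count of none is close to that of all genes. Between control shRNA and parental libraries none was called by edgeR, where 3.61% of all genes were (2.05% higher, 1.56% lower). At an unadjusted edgeR p under 0.05 that comparison held 4 of the 24 (Dgcr2, Prodh, Rtn4r and Zdhhc8, all lower with the control shRNAs), where 2343 of all 13639 genes passed. The 4 are therefore given as values and not as a result about the members. DESeq2 called 1 member.

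Without overlap between the 4 hairpin libraries and the 8 controls stood 4 of 24 genes with shHIRA I, Mrpl40 below and Klhl22, Rtn4r and Txnrd2 above, where 9.11% of all genes did not overlap. In the libraries labelled shHIRA II these were 5, Pi4ka, Snap29, Rtn4r and Zdhhc8 below and Ranbp1 above, where 23.8% of all genes did not overlap.

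Other genes in and next to the segment were counted in the same way. Of 17 such genes 12 were tested, of which 8.33% were called with shHIRA I and 16.7% with shHIRA II, beside 19.6% and 32.2% of all genes and 37.5% and 41.7% of the members, and no test compared these shares. With shHIRA I 1 fell, the phosphatase gene Ppm1f (−0.63, edgeR adjusted p = 0.00218), and none rose. In the libraries labelled shHIRA II Tssk1, a testis kinase near the detection limit, rose (1.95, edgeR adjusted p = 0.00139, mean 1.77 CPM beside 0.453 CPM). On the rest of chromosome 16, 23.2% of 371 tested genes were called with shHIRA I and 34.0% with shHIRA II.

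Of 41 tested genes whose proteins work in 1 complex or reaction with a member, 3 rose and 3 fell with shHIRA I, and 10 rose and 4 fell with shHIRA II (14.6% and 34.1% called). These shares lay under or near the 19.6% and 32.2% of all genes, so the single partners below are given as values and not as a result about the members. Of 8 genes for other proteins of the large mitochondrial ribosomal subunit, none was called with shHIRA I, where Mrpl40 fell. In the libraries labelled shHIRA II Mrpl1 (0.71), Mrpl2 (0.92) and Mrpl9 (0.42) rose, where Mrpl40 did not pass. Acly, the enzyme that splits the citrate Slc25a1 exports, fell with both hairpins, as Slc25a1 did (−1.18 with shHIRA I and −0.92 with shHIRA II, edgeR adjusted p = 0.00042 and 0.00181).

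Among the 4 genes of the complex that holds Pi4ka at the membrane, Ttc7b fell with both hairpins (−0.65 and −1.94), Fam126a fell with shHIRA I (−0.92) and Efr3a rose with shHIRA I (0.52). Of 10 genes of the helicase around Cdc45, Mcm5 rose with shHIRA I (1.03), and Gins1 (1.23), Gins2 (0.86) and Gins4 (0.57) rose with shHIRA II. Ran, the GTPase that Ranbp1 binds (0.74), and Drosha, the nuclease that Dgcr8 serves (0.50), rose with shHIRA II. Of the partners of Crkl, Rapgef1 rose with both (0.44 and 0.45), and with shHIRA II Bcar1 rose (1.17) and Dock1 fell (−0.56). Stx17, which pairs with Snap29, fell with shHIRA II (−0.34).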

How the data were processed

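Gene tables of estimated counts and of TPM from 20 libraries were used as deposited. The tools that the submitters' processing notes name are bcl2fastq, kallisto and edgeR, and the build is mm10; versions, annotation and strand setting are not given in the sources used here. Estimated counts, not whole as deposited, were rounded. Over the tested members the ratio of deposited count to TPM, relative to that of Klhl22 in each library, was constant to within 9.19e-10 (log2). Both therefore hold 1 measurement. Parental columns (headed as controls) were assigned as the sole group left over, and shHIRA I columns as the shHIRA columns without the numeral II. Spreadsheet dates replaced 27 gene names, and those rows were not named. The result of 1 gene next to the members is not reported here.

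The members and lists, and the rule for named genes (members called in any hairpin comparison, the 3 nearest to Hira and the 3 highest in TPM), were chosen with earlier results of these data known. edgeR 4.0.16 (R 4.3.3, TMM, quasi-likelihood F test, Benjamini-Hochberg over 13639 genes, call at 0.05) was fitted as group means over all 20 libraries. The method was also run on counts simulated with the spread of that fit, and the outcome is not given here. Each hairpin was compared with the mean of both control groups. Errors of fold changes are standard errors. Alternatives were DESeq2 1.42.0, limma 3.58.1 on log2(TPM + 0.5), other scalings, filters, controls and covariates, and each library left out in turn. Depth and 4 libraries a group limit precision. Windows and 31-base words came from RefSeq and GENCODE M21 (GRCm38).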

Additional observations from a re-analysis of the deposited data

Results flagged for a closer look

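Among 80 sets of 4 libraries (16 named members in 5 groups), 3 held a library far from the other 3 of its group, and chance alone sets apart about 1 in 20 such sets. Txnrd2 stood at 129 CPM in shHIRA I replicate 3, beside 15.9 to 21.8 CPM in the other 3. Gnb1l stood at 17.4 CPM in shScramble replicate 1, beside at most 6.001 CPM, and Cdc45 at 87.8 CPM (87.85) in the same library, beside 38.0 to 44.5 CPM. Members outside the 16 were not checked in this way. Among them are Trmt2a, Dgcr6 and Med15, for which shHIRA I replicate 3 stood apart as given above.

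The change against the control shRNAs differed between the hairpins at 4 members by the test of shHIRA II minus shHIRA I. The log2 differences were −0.55 for Klhl22 (edgeR adjusted p = 0.00179), −1.57 for Rtn4r (adjusted p = 0.000182), −0.66 for Zdhhc8 (adjusted p = 0.0144) and 0.54 for Mrpl40 (adjusted p = 0.00434).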

How the results depend on the processing

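Of 23 calls (9 with shHIRA I, 10 with shHIRA II, 4 between hairpins), 10 held with each library left out, 8 under every other setting and 7 under both. Those 7 were Mrpl40 with shHIRA I, Snap29, Slc25a1 and Rtn4r with shHIRA II, and Klhl22, Rtn4r and Mrpl40 between hairpins. Among the settings counted, Pi4ka, Lztr1 and Zdhhc8 with shHIRA II were lost only with the mitochondrial covariate. For shHIRA II that share and the hairpin cannot be told apart. These tallies left out shLuciferase, shScramble or parental libraries alone as control, which entered only the counts of members called. The 9 members called with shHIRA I became 5 with library totals alone as scaling, 4 without parental libraries, 2 against shLuciferase alone and 4 against parental cells, and 4 to 8 with 1 library left out, the lowest without shHIRA I replicate 1, shHIRA I replicate 4 or shLuciferase replicate 3 (4 each) and 5 without shScramble replicate 4. The 10 called with shHIRA II became 5 with the mitochondrial covariate, 5 against shLuciferase alone and 6 against shScramble alone, and 6 to 12 with 1 library left out (6 without shHIRA II replicate 2). The 4 between hairpins became 7 without the 2 shHIRA libraries of lowest mitochondrial share and 3 to 7 with 1 library left out (7 without shHIRA I replicate 3). Control shRNAs minus parental gave 1 call by DESeq2 and 0 to 1 with 1 library left out (1 without shHIRA II replicate 1 or shLuciferase replicate 2). None of these counts has the share of all genes called in the same fit beside it. Hira with shHIRA II was called with the mitochondrial covariate (−0.46, edgeR adjusted p = 0.0395). Signs turned for Ufd1l with shHIRA I with limma on TPM (0.0585) and library totals (0.0315), and between −0.12 and 0.0458 with 1 library left out. They turned for Cdc45 with shHIRA I (−0.13 with the mitochondrial covariate, −0.0940 to 0.41 with 1 library left out) and for Mrpl40 with shHIRA II (−0.14 with that covariate), none of them called. The cause was not tested. Replicate numbers were not taken to pair the libraries, since of 40 same-numbered pairs 17, not all, had a correlation over 0.1 (range −0.30 to 0.42). As a hint from the data that some may be paired, 13 of 20 libraries correlated best with their own number, and the median was 0.07 for same-numbered and −0.02 for other pairs. With a replicate block the counts were 9, 10 and 4, as without it. Low counts of Car15 and Gp1bb limit what could be seen.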
